A study of Mus musculus with 4 samples.

Results

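Foxp3-positive regulatory T cells were described among CD4 T cells from spleens of 2 NOD.Rag1null mice, hosts without T or B lymphocytes because recombination is blocked. The members were chosen by a rule on the cell barcodes of each mouse: 500 or more genes with a UMI (unique molecular identifier, 1 per captured transcript), 10% or less of UMIs mitochondrial, exactly 1 TRB and at most 2 TRA receptor contigs, and at least 1 Foxp3 UMI. They numbered 919 of 5993 kept cells in mouse 1 and 1146 of 6332 in mouse 2, 2065 of 12325 in all, and were set against the 5074 and 5186 kept cells with 0 Foxp3 UMIs, called Foxp3-zero cells. All cells came from the transfer of 5000000 CD4 T cells purified on magnetic columns from the spleens of B6.H2g7 donors aged 6 to 8 weeks (strain B6.NOD-(D17Mit21-D17Mit10)/LtJ), a B6 background with the H2g7 region of NOD mice. On day 14 live cells positive for CD4 and TCRβ were sorted, and 1 gene expression and 1 receptor library was made per host. Both hosts form 1 group, so classes of cells were compared within mice, and no untransferred or untreated sample enters.

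Regulatory T cells are CD4 T cells that restrain other lymphocytes. FOXP3 is their lineage transcription factor, CD25 (encoded by Il2ra) captures interleukin 2 (IL-2) for them, and they can use the inhibitory receptor CTLA4 and latent TGF-β held by GARP (encoded by Lrrc32). Many arise in the thymus after strong recognition of self ligands, and others form from conventional CD4 cells in the periphery.

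Foxp3 (ENSMUSG00000039521) lies on the plus strand of chromosome X at 7573644 to 7595245 in GRCm38. Its level chose the members and is a description here. Positive cells held a median of 3 Foxp3 UMIs in mouse 1 and 4 in mouse 2, with maxima of 21 and 22, at a summed 526 and 594 CPM (counts per 1000000 UMIs). The share of positive cells was 15.3% (95% exact binomial interval 14.4 to 16.3) in mouse 1 and 18.1% (17.2 to 19.1) in mouse 2, a mean of 16.7% ± 1.95 (SD, n = 2 mice). At least 2 Foxp3 UMIs were found in 12.1% and 15.2%. With every cell thinned to 3000 UMIs the shares were 12.7% and 15.2%, against 16% and 18.5% of the same cells unthinned.

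Sets of cells chosen as a background for a single Foxp3 UMI held Foxp3 too, and neither is known to lack regulatory T cells. Barcodes with macrophage C1q transcripts and no receptor contig held a Foxp3 UMI in 3 of 27 (mouse 1) and 7 of 33 (mouse 2), at median depths of 8277 and 10034 UMIs. Kept cells with a Cx3cr1 UMI and no Il2ra UMI held a Foxp3 UMI in 22 of 436 cells (5.05%, 3.19 to 7.54) in mouse 1 and 15 of 772 (1.94%, 1.09 to 3.18) in mouse 2, at median depths of 6107 and 6000 UMIs. At least 2 Foxp3 UMIs were found in 13 and 8 of those cells. A missing Il2ra UMI does not set regulatory T cells aside, since 533 and 539 of all positive cells had none. The background of a single UMI was therefore not measured. Positive cells had medians of 6338 and 6597.5 UMIs and Foxp3-zero cells 5522 and 6166. Mitochondrial UMIs made up a median of 1.18% in positive cells of both mice, against 1.74% and 1.82% in Foxp3-zero cells. Of the barcodes, 58 occurred in both libraries, and 1 of them was Foxp3-positive in both.

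Cells with exactly 1 Foxp3 UMI were 193 (21.0%) and 183 (16%) of the positive cells. Ccl5, a chemokine of effector T cells, stood at 6338 and 7517 CPM in them, against 13603 and 13309 CPM in cells with 0 Foxp3 UMIs just outside. It was 1730 and 1674 CPM in cells with 2. Itgae, which encodes the αE integrin chain CD103, stood at 166 and 182 CPM with 1 UMI, at 6.27 and 8.67 CPM with 0 and at 235 and 235 CPM with 2. Cells with a single UMI lay between the neighbouring classes for both genes in both mice. Other markers did not all do so: Il2ra stood at 113 CPM with 1 UMI and 91.6 CPM with 2 in mouse 1, and Penk at 250 CPM with 1 and 98.5 CPM with 2 in mouse 2.

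**Figure D1:**
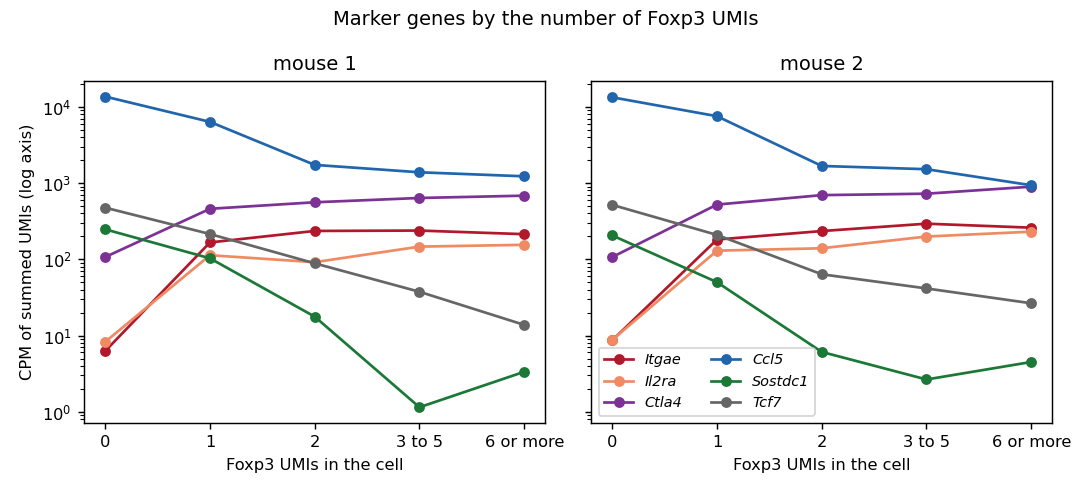
CPM of summed UMIs (log axis) of 6 genes in kept cells grouped by their number of Foxp3 UMIs, per mouse. Itgae, Il2ra and Ctla4 are far higher from 1 UMI on, while Ccl5, Tcf7 and Sostdc1 are intermediate at 1 UMI and lower from 2 on; Sostdc1 is 103 and 50.1 CPM at 1 UMI and 17.7 and 6.10 CPM at 2.

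Clustering without Foxp3 and receptor segment genes placed most members together. A cluster led by Rln3, Foxp3, Itgae, Mmp9 and Ncmap, with 5 listed Treg markers among its 10 leading genes, was called Treg-like. The 5 were Foxp3 itself, Rln3, Itgae, Lrrc32 and Penk, so the name rests in part on the gene of the rule. The marker list was chosen with earlier results of these data known. The Treg-like cluster held 650 positive cells in mouse 1, 70.7% (67.7 to 73.7), and 945 in mouse 2, 82.5% (80.1 to 84.6). Foxp3-zero cells fell into it in 1.5% (1.18 to 1.87) and 1.48% (1.17 to 1.85) of cases. Of its cells 89.5% and 92.5% had a Foxp3 UMI. It took 48.2% and 59.0% of cells with 1 Foxp3 UMI and 79.1% and 86.3% of those with 2.

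A cycling cluster, led by Ccna2, Cenpf, Pclaf, Plk1 and Nusap1, held 15.3% and 8.38% of positive cells, against 7.06% and 4.38% of Foxp3-zero cells. Its cells were deep, at medians of 13418 and 15970 UMIs. A shallow unnamed cluster led by Hs6st3 and S100a9, at medians of 3458 and 3975.5 UMIs, took 7.62% and 4.01% of positive cells and 7.04% and 5.40% of Foxp3-zero cells. The largest cluster of Foxp3-zero cells, led by Sostdc1, Ces2c and Gm9885, was Foxp3-positive in 1.01% and 0.91% of its cells. One led by Itgad, Ccl5 and Trdc was positive in 1.40% and 1.93%.

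UMIs were summed per mouse and class and tested with edgeR, with the mouse as a block. Of 13072 genes tested, 42.7% passed an adjusted p of 0.05: 2912 (22.3%) were higher and 2674 (20.5%) lower in Foxp3-positive cells, and 5571 of the 5586 had the same sign in both mice. Changes past 2-fold were 1599, of which 746 were higher and 853 lower. The test's spread was pooled across genes and how far a single gene varied between hosts did not enter it, so standard errors (SE) here are small. Without the mouse block 1646 genes were higher and 1471 lower, and DESeq2 called 1518 and 1099. The median log2 fold change of all genes tested was -0.01.

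The surface markers of regulatory T cells rose by large factors. Itgae averaged 238 ± 28.1 CPM in positive cells and 7.50 ± 1.70 CPM in Foxp3-zero cells (SD, n = 2 mice each), a log2 fold change of 4.99 (SE 0.0732). Il2ra stood at 137 and 196 CPM in positive cells, against 8.29 and 8.81 CPM in Foxp3-zero cells (log2 fold change 4.29, SE 0.0734). Lrrc32 stood at 28.5 and 37.2 CPM in positive cells, against 0.477 and 0.760 CPM in Foxp3-zero cells (log2 fold change 5.72, SE 0.188, edgeR adjusted p = 6.07e-195). It was the largest increase among genes of at least 20 CPM in either class. For all 3 genes both values in positive cells lay far above both in Foxp3-zero cells.

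Both peptide genes among the markers rose. Rln3, which encodes the peptide hormone relaxin 3, stood at 259 and 203 CPM in positive cells, against 7.40 and 4.73 CPM in Foxp3-zero cells (log2 fold change 5.27, SE 0.0756). Penk, the precursor of the enkephalin opioid peptides, stood at 251 and 362 CPM in positive cells, against 32.2 and 21.2 CPM in Foxp3-zero cells (log2 fold change 3.53, SE 0.0626). A minority of positive cells carried them. A Rln3 UMI was found in 28.9% and 25.3% of positive cells, against 0.985% and 1.20% of Foxp3-zero cells. A Penk UMI was found in 15.7% and 15.9% of positive cells, against 4.08% and 2.91% of Foxp3-zero cells.

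**Figure D2:**
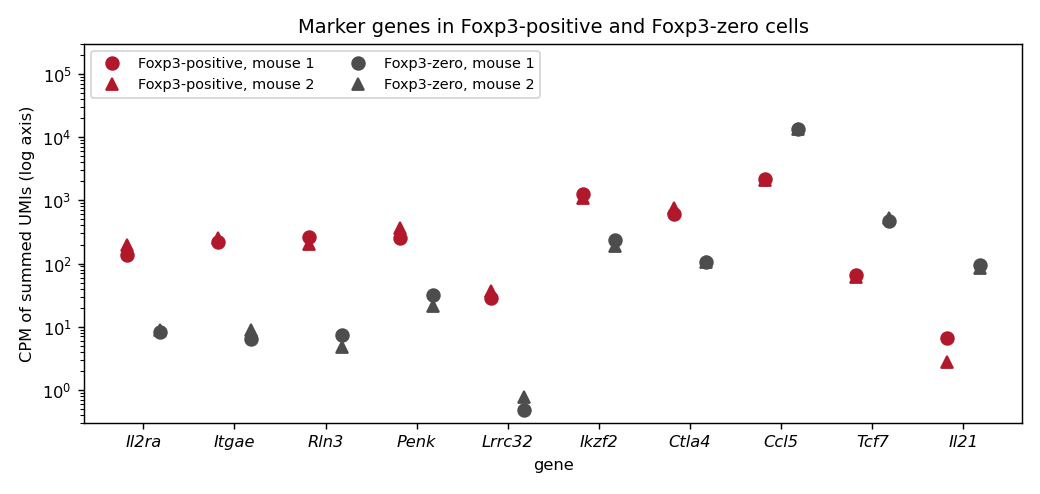
CPM of summed UMIs (log axis) of 10 genes in Foxp3-positive (left of each pair) and Foxp3-zero cells (right), 1 symbol per mouse. Symbols of the 2 classes do not overlap for these genes, which were picked as markers or large changes. The share of all genes without overlap was not counted, and 42.7% of all genes tested were called. The 2 mice lie furthest apart for Il21 in positive cells, at 6.60 and 2.74 CPM.

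Other large increases were in genes less often used as markers. Cep112, a centrosomal protein gene, stood at 113 and 109 CPM in positive cells, against 3.02 and 2.34 CPM in Foxp3-zero cells (log2 fold change 5.38, SE 0.0938). Log2 fold changes of 5.45 for Nckap5, 4.74 for the syndecan gene Sdc4, 4.57 for Ncmap and 4.30 for the predicted gene Gm8281 completed the 10 largest with Flicr. Flicr (ENSMUSG00000039545), a long noncoding RNA gene, had a log2 fold change of 5.70 (SE 0.237), but its annotated span, 7573600 to 7581027 on chromosome X, overlaps that of Foxp3 on the same strand. Its reads and those of Foxp3 may therefore not be separable.

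Genes of the regulatory T cell programme rose almost as a whole. Of 18 core genes tested 17 rose and 1 fell, at a median log2 fold change of 2.51, against 22.3% of all genes higher and 20.5% lower. These shares of all genes are the background for each list count of this comparison. Ikzf2, which encodes the transcription factor Helios, stood at 1245 and 1104 CPM in positive cells, against 234 and 187 CPM in Foxp3-zero cells (log2 fold change 2.49, SE 0.0555). Ctla4 rose by 2.68 on the log2 scale, Tnfrsf4 (OX40) by 2.54, Tnfrsf18 (GITR) by 2.15 and Capg, an actin capping protein gene, by 2.69. The exception was Nrp1, which encodes neuropilin 1, a surface protein often used for thymus-derived cells. It fell by 0.27 (SE 0.0649, edgeR adjusted p = 0.000138), at 69.3 and 68.3 CPM in positive cells against 74.3 and 91.9 CPM in Foxp3-zero cells. Its log2 fold change was 0.0056 (edgeR adjusted p = 0.968) against Foxp3-zero cells at matched UMI depth. The call was also lost with 1 cell per clonotype and class (-0.06, edgeR adjusted p = 0.622), without the mouse block, with DESeq2, without TRBV26 cells and over all barcodes past the cell filters, at adjusted p of 0.116 to 0.169.

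Genes of effector regulatory T cells followed. Of 19 tested 16 rose, beside 22.3% of all genes, with a median of 1.54. Of the others 1 fell (Rora, edgeR adjusted p = 0.0566 with 1 cell per clonotype and class) and 2 did not pass (Batf and Irf4). The chemokine receptor gene Ccr8 stood at 162 and 209 CPM in positive cells, against 14.6 and 17.3 CPM in Foxp3-zero cells (log2 fold change 3.54, SE 0.0672). The terminal differentiation receptor gene Klrg1 stood at 124 and 216 CPM in positive cells, against 25.4 and 18.7 CPM in Foxp3-zero cells (log2 fold change 2.94, SE 0.0656). Areg, encoding the tissue repair factor amphiregulin, rose by 3.25, Tnfrsf9 (CD137) by 2.80, the interleukin gene Il10 by 1.61 and Prdm1, encoding BLIMP1, by 1.5. Gzmb, which encodes granzyme B, rose by 1.54 (SE 0.0542) and by 2.41 with 1 cell per clonotype and class.

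**Figure D3:**
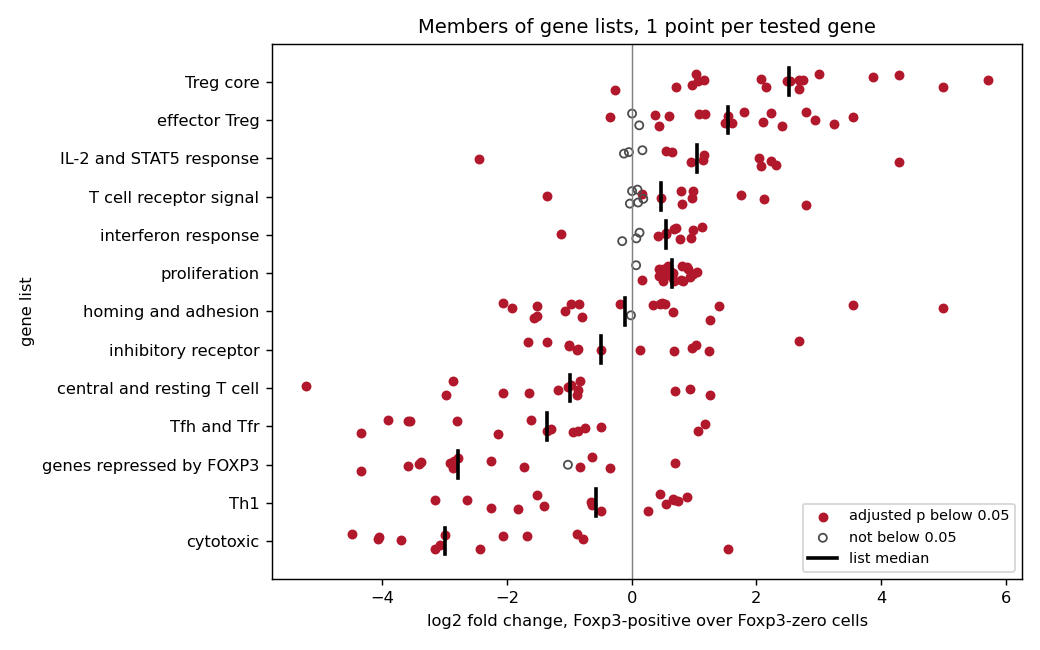
Log2 fold change of each tested member of 13 gene lists, Foxp3-positive over Foxp3-zero cells; filled points passed the threshold and bars mark list medians. The Treg lists lie to the right and the cytotoxic, FOXP3-repressed and follicular helper (Tfh) lists to the left; the homing and inhibitory receptor lists lie on both sides of 0.

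Effector and helper cytokine genes were far lower in positive cells. Of 15 genes described as repressed by FOXP3, 13 fell, beside 20.5% of all genes, at a median of -2.79. Satb1 rose by 0.70 and Csf2 did not pass. With 1 cell per clonotype and class Satb1 was at 0.12 (edgeR adjusted p = 0.232), and it did not pass with DESeq2 (adjusted p = 0.112). Il21, a cytokine of follicular helper cells, stood at 6.60 and 2.74 CPM in positive cells, against 96.0 and 85.4 CPM in Foxp3-zero cells (log2 fold change -4.34, SE 0.113). Tnfsf8, which encodes CD30 ligand, stood at 26.0 and 20.4 CPM in positive cells, against 236 and 254 CPM in Foxp3-zero cells (log2 fold change -3.41, SE 0.0756). The cytokine genes Il2, Il4 and Ifng fell by 3.37, 3.58 and 2.25 on the log2 scale, and Cd40lg, encoding the helper ligand CD154, by 2.85.

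Cytotoxic and natural killer receptor genes were lower too. Of 13 cytotoxic genes 12 fell, beside 20.5% of all genes, at a median of -3.0. With 1 cell per clonotype and class 10 fell, 2 rose and 1 did not pass, at a median of -1.74. Gzmk, which encodes granzyme K, stood at 75.2 and 51.8 CPM in positive cells, against 676 and 463 CPM in Foxp3-zero cells (log2 fold change -3.16, SE 0.0644). Eomes, a T-box factor gene of cytotoxic cells, fell by 3.00 and Klrd1, encoding CD94, by 4.07. With 1 cell per clonotype and class the log2 fold changes were -2.07 for Gzmk, -1.74 for Eomes, -2.63 for Klrd1 and -1.34 for Ccl5. The Th1 list split, with 7 of 16 genes higher and 9 lower (median -0.57), beside 22.3% and 20.5% of all genes. Tbx21, the Th1 master regulator gene, rose by 0.26. Its log2 fold change was 0.08 without TRBV26 cells (edgeR adjusted p = 0.356), and the call was also lost with DESeq2 (adjusted p = 0.117) and without the mouse block (edgeR adjusted p = 0.0844). The chemokine receptor gene Cxcr3 rose by 0.67, at 459 and 494 CPM in positive cells against 323 and 281 CPM in Foxp3-zero cells. Ccl5 fell by 2.64 (SE 0.0597).

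The 10 largest decreases were Il21, Klrd1 and Sostdc1 (-3.90), a gene that led the largest cluster of Foxp3-zero cells, with the peptide hormone gene Gcg (-5.68), the interferon-induced membrane gene Ifitm1 (-4.84), the chemokine gene Xcl1 (-4.14), Hs6st3 (-4.06), 1700019D03Rik (-3.68), St8sia1 (-3.65) and Igfbp7 (-3.60). Part of what remained of them in positive cells came from 1 cell. Gcg held 17 and 18 UMIs over all positive cells, 47.1% of them in 1 cell of mouse 1 and 77.8% in 1 cell of mouse 2, against 4242 and 3280 UMIs in Foxp3-zero cells. Of 75 Ifitm1 UMIs in positive cells of mouse 1, 76.0% lay in 1 cell. The mice taken alone gave log2 fold changes of -3.25 and -6.70 for Ifitm1 and -5.07 and -3.05 for Xcl1.

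Genes of resting T cells mostly fell, with 11 of 14 lower and 3 higher (median -0.99), beside 20.5% and 22.3% of all genes. Tcf7, which encodes TCF1 and keeps T cells in a stem-like state, stood at 66.0 and 60.5 CPM in positive cells, against 477 and 519 CPM in Foxp3-zero cells (log2 fold change -2.98, SE 0.0642). Klf2 fell by 1.65 and Ccr7 by 2.06, both linked to recirculation through lymphoid tissue. The costimulatory receptor gene Cd27 rose by 0.94. Of 15 follicular genes 13 fell (median -1.35), beside 20.5% of all genes. Bcl6, the follicular lineage factor gene, fell by 0.75, Cxcr5, the follicle homing receptor gene, by 1.62 and Pdcd1, encoding PD-1, by 1.35. Icos and Izumo1r, both also Treg genes, rose by 1.17 and 1.07.

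IL-2 signalling genes rose in 10 of 14 cases, beside 22.3% of all genes. Bcl2 fell and 3 genes, Stat5a, Stat5b and Socs1, did not pass (median 1.04). Cish, induced by STAT5, stood at 127 and 186 CPM in positive cells, against 29.1 and 34.0 CPM in Foxp3-zero cells (log2 fold change 2.31), and the survival kinase gene Pim1 rose by 2.04. Bcl2 stood at 39.9 and 27.1 CPM in positive cells, against 161 and 197 CPM in Foxp3-zero cells (log2 fold change -2.44, SE 0.0715), while the related survival genes Mcl1 and Bcl2l1 rose by 0.65 and 0.94. Of 15 genes of T cell receptor signalling 9 rose, beside 22.3% of all genes, Nr4a2 fell by 1.35 and 5 did not pass. With 1 cell per clonotype and class, Nr4a2 was at 0.24. Nr4a1, an early receptor signal gene, rose by 2.12 (SE 0.0626), but the activation genes Cd69 and Egr2 had log2 fold changes of 0.09 and 0.10 and did not pass.

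Interferon response genes were higher in 9 of 13 cases, led by Igtp, at 264 and 298 CPM in positive cells against 134 and 124 CPM in Foxp3-zero cells (log2 fold change 1.13). Oasl2 fell by 1.14 and 3 genes did not pass. Homing and adhesion genes divided, 9 of 20 higher and 10 lower, beside 22.3% and 20.5% of all genes. The integrin genes Itgb1 and Itga4, which together encode VLA-4, fell by 1.91 and 1.56, and Itgb7, whose product pairs with CD103, rose by 0.53. Of 13 inhibitory receptor genes 6 rose and 7 fell, Tigit among them by 0.97. Tox, a transcription factor gene of exhausted T cells, fell by 0.86. Of 14 glycolysis genes 5 rose, 2 fell and 7 did not pass, beside the 42.7% called among all genes. The lactate exporter gene Slc16a3 rose by 2.48 (SE 0.103).

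Of 20 proliferation genes 19 were higher in positive cells and 1 did not pass, with a median of 0.65. Mki67 stood at 273 and 178 CPM in positive cells, against 140 and 89.6 CPM in Foxp3-zero cells (log2 fold change 0.98, SE 0.0561). Against Foxp3-zero cells drawn to the same UMI depth, 2 proliferation genes were higher, 5 lower and 13 did not pass. Without the cycling cluster 7 were higher, 3 lower and 10 did not pass, and without the mouse block 7 were higher and 13 did not pass. Cycling cells were the deepest, so depth and cycling cannot be told apart here.

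Among markers of other lineages, some were high in positive cells. Ighm (ENSMUSG00000076617), the gene of the immunoglobulin μ constant region on chromosome 12 at 113418558 to 113422730, had a UMI in 78.5% and 84.5% of positive cells, against 20.9% and 25.0% of Foxp3-zero cells. Its summed level was 529 and 576 CPM in positive cells, against 72.3 and 83.7 CPM in Foxp3-zero cells. Among the other B cell markers, Ms4a1, Pax5 and Ebf1 were at 0 in all positive cells, Cd79b stood at 10.4 and 18.3 CPM in positive cells against 0.887 and 1.46 CPM in Foxp3-zero cells, and Igkc at 2.94 and 3.17 CPM against 1.80 and 0.898 CPM. The summed level of all 8 B cell markers was 543 and 598 CPM in positive cells and 75.6 and 87.1 CPM in Foxp3-zero cells, nearly all of it Ighm. The part of other cells' RNA in the Ighm difference was not tested.

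Cd74, the invariant chain of MHC class II, stood at 711 and 701 CPM in positive cells and 121 and 102 CPM in Foxp3-zero cells (log2 fold change 2.67, SE 0.0561), with a UMI in 77.7% and 79.2% of positive cells and 21.3% and 17.6% of Foxp3-zero cells. Of the 6 class II genes tested, Cd74 included, 2 rose, 2 fell and 2 did not pass, beside 22.3% higher and 20.5% lower of all genes. H2-DMa, a peptide loading chain, rose by 0.25, a call lost with 1 cell per clonotype and class (0.07, edgeR adjusted p = 0.619), with DESeq2, without the mouse block and over all barcodes past the cell filters. H2-Eb1 had a log2 fold change of 0.27 (edgeR adjusted p = 0.0693), with a UMI in 6.09% and 7.42% of positive cells, against 2.05% and 2.24% of Foxp3-zero cells. H2-Aa fell by 0.74, at 7.72 and 11.4 CPM in positive cells against 14.9 and 17.4 CPM in Foxp3-zero cells, and H2-Ab1 by 1.02. Cells with an H2-Ab1 UMI were 2.50% and 2.09% of positive cells, against 1.38% and 1.83% of Foxp3-zero cells. Without cells holding C1q UMIs the log2 fold changes were -0.39 for H2-Aa, -0.63 for H2-Ab1 and 0.76 for H2-Eb1, which then passed (edgeR adjusted p = 6.56e-07). Of 9 myeloid markers 8 were lower in positive cells and 1 did not pass (2 lower without the mouse block), and the sum over all 10 listed was 32.2 and 36.7 CPM in positive cells against 59.5 and 68.0 CPM in Foxp3-zero cells. Cd8a was at 0 in all 4 sums. A Cd4 UMI was found in 74.0% and 73.8% of positive cells, against 85.9% and 89.7% of Foxp3-zero cells, and in 48.1% and 46.6% against 69.1% and 71.7% after thinning.

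Of the remaining lists, Th2 genes rose in 5 of 6 cases with Il4 lower, and Th17 genes fell in 6 of 7 with Ahr higher. Ahr did not pass without TRBV26 cells (log2 fold change 0.37, edgeR adjusted p = 0.0576). Without the mouse block 3 Th2 genes rose, 3 Th17 genes fell, and neither Ahr nor any erythroid marker passed. Dissociation stress genes rose in 3 and fell in 4 of 11, beside 22.3% and 20.5% of all genes. All 3 natural killer markers tested fell, the 1 CD8 marker tested (Cd8b1) rose, and dendritic cell markers gave 1 higher and 1 lower. The natural killer markers Tyrobp and Fcer1g were also leading genes of a cluster headed by C1qb. A Tyrobp UMI was found in 1.74% and 1.40% of positive cells, against 1.40% and 1.43% of Foxp3-zero cells. Erythroid markers were called higher in 3 of 4 cases, but 1 cell of mouse 2 held 95.6% of their UMIs in positive cells of that mouse, and no platelet marker passed the filter on low counts.

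The positive cells were not uniform for the markers. With cells thinned to 3000 UMIs, 33.3% and 32.4% of positive cells showed none of Il2ra, Itgae, Penk and Rln3, against 93.8% and 94.9% of Foxp3-zero cells. A single marker was found in 37.1% and 33.5% of positive cells, and all 4 in 6 cells of each mouse. An Il2ra UMI was present in 42.0% and 53.0% of positive cells and an Itgae UMI in 53.2% and 57.4% (both unthinned).

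Positive cells with Il2ra UMIs were set against those without (386 and 607 against 533 and 539 cells). Of 10556 genes tested 10.2% passed, 648 (6.14%) higher and 429 (4.06%) lower. Lmna, which encodes lamin A/C, stood at 34.5 and 45.5 CPM in Il2ra-positive cells, against 7.49 and 12.2 CPM in Il2ra-zero cells (log2 fold change 2.01, SE 0.177, edgeR adjusted p = 6.02e-27). It was followed by 1500009L16Rik (1.84), Myadm (1.70), Gm13522 (1.68, with 52.9% of its Il2ra-positive UMIs of mouse 1 in 1 cell) and the leukotriene receptor gene Ltb4r1 (1.67). Ctla4 rose by 0.64, Itgae by 0.67 and Penk by 0.53, the last not called by DESeq2. Rln3 (0.07, edgeR adjusted p = 0.630) and Ikzf2 (-0.06, edgeR adjusted p = 0.473) did not pass. Of 19 effector Treg genes 14 rose and none fell, with Klrg1 up by 1.56. Signal genes rose in 8 of 15 cases and fell in 1, with Myc, a growth regulator, up by 1.5.

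Among the largest decreases with Il2ra, Gzmk stood at 16.9 and 15.4 CPM in Il2ra-positive cells, against 124 and 99.9 CPM in Il2ra-zero cells (log2 fold change -2.77, SE 0.122). Sostdc1 (-2.44), Eomes (-1.87) and Ehd3 (-1.70) followed. Of 72 Sostdc1 UMIs in Il2ra-zero cells of mouse 2, 44.4% lay in 1 cell. Hbb-bs (-5.96), a haemoglobin gene, had 98.4% of its 1044 UMIs in Il2ra-zero cells of mouse 2 in 1 cell. Of 13 follicular genes 10 fell. The Treg-like cluster took unequal parts of the 2 classes and held 75.4% and 85.3% of Il2ra-positive cells and 67.4% and 79.2% of Il2ra-zero cells. Within that cluster 308 genes were higher and 135 lower. Gzmk there had a log2 fold change of -1.06 (edgeR adjusted p = 0.00855), Eomes of -0.30 (adjusted p 0.746), Ehd3 of -0.38 (adjusted p 0.661) and Sostdc1 of 0.26 (adjusted p 0.855). Without the mouse block 21 genes were higher and 13 lower. Of the genes named for this split 10 then lost their call, among them Ctla4 (edgeR adjusted p = 0.0582), Itgae (0.0509), Klrg1 (0.0544) and Penk (0.313).

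Positive cells with Itgae UMIs (489 and 658) were compared in the same way with those without (430 and 488). Of 10524 genes tested 12% passed, 591 (5.62%) higher and 677 (6.43%) lower. Ltb4r1 (1.95), Klrg1 (1.90), Gm13522 (1.83), the class II gene H2-Eb1 (1.66) and the protease gene Lgmn (1.58) rose most among genes of at least 20 CPM. Of the Gm13522 UMIs in Itgae-positive cells of mouse 1, 49.2% lay in 1 cell. The mice taken alone gave 2.48 and 0.83 for Gm13522. Klrg1 stood at 208 and 309 CPM in Itgae-positive cells, against 40.7 and 97.1 CPM in Itgae-zero cells (SE 0.0789, edgeR adjusted p = 3.00e-121). Penk rose by 1.05, Il2ra by 0.98, Ctla4 by 0.61, Rln3 by 0.46 and Ikzf2 by 0.25. All of these calls were lost without the mouse block, at edgeR adjusted p from 0.0786 (Il2ra) to 0.328 (Ikzf2). Within the Treg-like cluster Penk was at 0.61 (edgeR adjusted p = 0.0568), Rln3 at 0.04 (adjusted p 0.887) and Ikzf2 at 0.07 (adjusted p 0.508). Penk did not pass with DESeq2 (adjusted p = 0.367), nor Ikzf2 at matched depth (0.15, edgeR adjusted p = 0.125). Of 17 core genes 14 rose and none fell, and of 5 class II genes 4 rose. None of the 3 myeloid markers tested passed, and the rest of the 10 listed, C1qa and Lyz2 among them, were too low to be tested. The part of myeloid RNA in the class II genes was not tested.

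Decreases with Itgae were led by Gzmk (-2.39), Sostdc1 (-2.13), Cxcr5 (-1.90), Eomes (-1.86) and Ehd3 (-1.56). Of 64 Sostdc1 UMIs in Itgae-zero cells of mouse 2, 50% lay in 1 cell. Cxcr5 stood at 9.55 and 9.57 CPM in Itgae-positive cells, against 34.0 and 36.5 CPM in Itgae-zero cells (SE 0.179, edgeR adjusted p = 7.17e-24). Within the Treg-like cluster, which held 79.6% and 88.9% of Itgae-positive and 60.7% and 73.8% of Itgae-zero cells, Cxcr5 had a log2 fold change of -1.94 (edgeR adjusted p = 4.80e-06). Gzmk there was at -0.24 (adjusted p 0.714), Eomes at -0.07 (adjusted p 0.966), Ehd3 at -0.49 (adjusted p 0.664) and Sostdc1 at 0.80 (adjusted p 0.511). All 20 proliferation genes were lower in Itgae-positive cells, and the cycling cluster held 11% and 6.53% of them, against 20.2% and 10.9% of Itgae-zero cells. Of the same genes 10 were higher and none lower in Il2ra-positive cells. At matched depth 5 of the 20 were lower with Itgae, and without the mouse block none was. That block-free fit called 21 genes higher and 12 lower in all, and 9 of the genes named for this split lost their call in it. Within the Treg-like cluster 138 genes were higher and 118 lower.

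Receptor sequences gave a readout that the Foxp3 rule did not use. The V segment TRBV26, known as Vβ3, was carried by 19.3% (16.8 to 22.0) of positive cells in mouse 1 and 22.2% (19.8 to 24.7) in mouse 2, against 37.6% (36.2 to 38.9) and 32.9% (31.6 to 34.2) of Foxp3-zero cells. Counting each clonotype once per class, the shares were 18.4% and 22.0% against 50.9% and 48.5%. A clonotype is the set of cells of 1 mouse with the same TRBV, TRBJ and CDR3 nucleotides. TRBV23 was lower too, at 9.03% and 7.59% against 17.3% and 12.3% of cells. An exact two-sided permutation test that exchanges the classes within 2 mice cannot go below p = 0.5, so shares were not tested, and intervals cover counting error only.

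TRBV12-1 and TRBV12-2, which encode Vβ5 chains, were found mostly in positive cells. Trbv12-1 lies on chromosome 6 at 41113550 to 41114067 and Trbv12-2 at 41118851 to 41119364, both on the plus strand. Of TRBV12-1 cells 70 of 81 were Foxp3-positive in mouse 1 (86.4%, 77.0 to 93.0) and 77 of 100 in mouse 2 (77.0%, 67.5 to 84.8). Of TRBV12-2 cells 64 of 96 (66.7%, 56.3 to 76.0) and 123 of 140 (87.9%, 81.3 to 92.8) were positive. By clonotype, TRBV12-1 made up 7.85% and 6.54% of the positive class, against 0.337% and 0.569% of the Foxp3-zero class, and TRBV12-2 7.51% and 7.74% against 0.487% and 0.532%. The leading V transcript gave a lower share for Trbv12-2: 42.6% and 50.4% of the kept cells in which it led were positive. TRBV12-1 was named after its values were seen, since it ranks below the 5 V genes with most positive cells.

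The V gene TRBV5 was positive in 50.8% (44.3 to 57.4) of its cells in mouse 1 and 24.5% (19.6 to 30.1) in mouse 2. Contigs given both V names, TRBV12-2+TRBV13-2, came from cells that were positive in 25.7% and 25.6% of cases. TRBV15, chosen after its values were seen, was positive in 16 of 40 and 25 of 60 cells. Barcodes without a contig, which the rule leaves out, allowed a look at V transcripts in other cells. Where Trbv12-1 was the leading V transcript with at least 2 UMIs, 6 of 6 (mouse 1) and 8 of 14 (mouse 2) held a Foxp3 UMI. For Trbv12-2 21.7% and 25.8% did, and for Trbv26 13.1% and 22.8%. Of all barcodes without a contig 16.3% and 22.4% did. Among those with a leading V transcript, Trbv26 led in 21.7% with and 29.9% without a Foxp3 UMI in mouse 1. In mouse 2 it led in 11.1% and 11.3%, so the lower Trbv26 share of positive cells was not seen there.

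**Figure D4:**
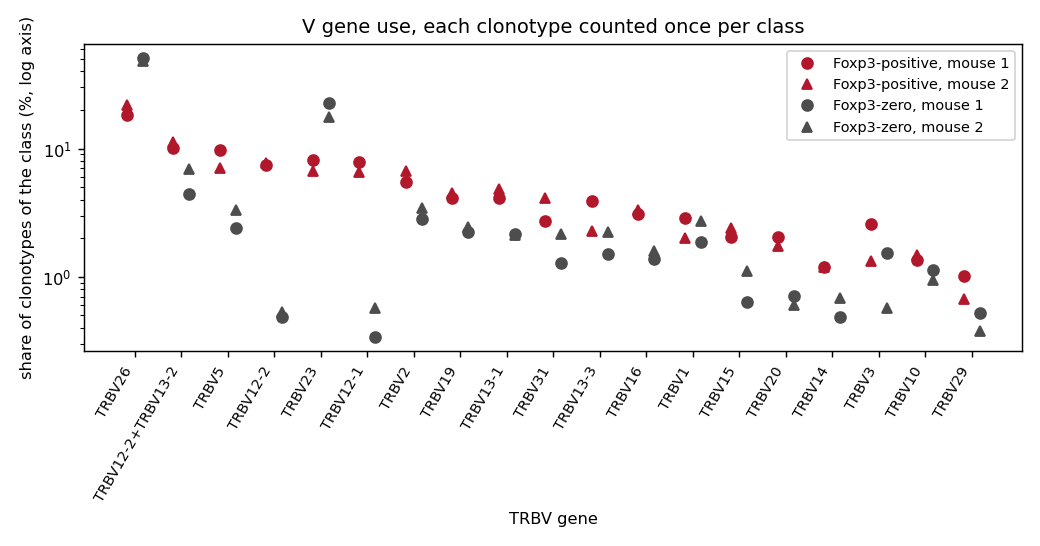
Share of the clonotypes of each class (%, log axis) that use each TRBV gene with at least 30 cells in both mice, Foxp3-positive left and Foxp3-zero right, 1 symbol per mouse. TRBV26 and TRBV23 are lower in the positive class, and TRBV12-1 and TRBV12-2 stand at 6.54% to 7.85% in it against 0.337% to 0.569% in the Foxp3-zero class.

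The positive cells formed 586 and 749 clonotypes, and 42.8% and 44.8% of them were the only cell of theirs. Their largest clonotype held 20 positive cells (2.18%) in mouse 1 and 15 (1.31%) in mouse 2, against 220 (4.34%) and 362 (6.98%) for the largest among Foxp3-zero cells. Drawn to 500 cells, positive cells gave 362 and 391 clonotypes, against 380 and 351 for Foxp3-zero cells, so the mice differed in direction. The order also depended on the V segment. Without TRBV26, 100 positive cells gave 89.2 and 92.0 clonotypes against 77.2 and 70.5 for Foxp3-zero cells. Among TRBV26 cells they gave 67.4 and 78.8 against 95.9 and 94.9. The mean CDR3 length was 13.99 and 13.94 codons in positive clonotypes and 14.01 and 14.00 in Foxp3-zero clonotypes.

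The 3 largest positive clonotypes of each mouse are shown by their TRB CDR3. Bases between the first 9 and the last 9 are in capitals, the stretch that holds the joins of the V, D and J segments. All TRB genes lie on chromosome 6.
Mouse 1, TRBV5 TRBJ1-1: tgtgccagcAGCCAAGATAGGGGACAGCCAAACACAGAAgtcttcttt
Mouse 1, TRBV26 TRBJ1-4: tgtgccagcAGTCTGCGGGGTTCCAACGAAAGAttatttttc
Mouse 1, TRBV26 TRBJ2-4: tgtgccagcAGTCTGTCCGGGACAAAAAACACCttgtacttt
Mouse 2, TRBV12-2 TRBJ2-4: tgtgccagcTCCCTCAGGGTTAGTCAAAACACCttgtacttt
Mouse 2, TRBV31 TRBJ1-1: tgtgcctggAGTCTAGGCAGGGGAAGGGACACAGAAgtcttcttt
Mouse 2, TRBV12-2 TRBJ1-2: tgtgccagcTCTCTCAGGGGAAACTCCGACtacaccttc
In mouse 1 they held 20, 18 and 18 positive cells beside 4, 2 and 1 Foxp3-zero cells. In mouse 2 they held 15, 13 and 12 beside 0, 4 and 0. In the first, 23 of 24 cells carried the same pair of alpha genes, TRAV8-1 with TRAJ53.

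Cells of many clonotypes shared their Foxp3 class, while other clonotypes mixed both classes. Among clonotypes of 2 or more cells with a positive cell, 89 of 193 (mouse 1) and 67 of 236 (mouse 2) were mixed. Mixed clonotypes held 24.5% and 13.1% of all positive cells. Of 140 and 113 clonotypes with at least 5 cells, 94 and 67 had no positive cell, 18 and 22 had under 50% positive and 28 and 24 had 50% or more. In the last set 89.2% and 92.7% of the cells were positive. In the other clonotypes of that size 24 of 1838 cells (1.31%) and 31 of 2073 (1.5%) were. The split at 50% uses Foxp3 itself, so the shares on its 2 sides follow in part from the split and are descriptions. Clonotypes with at least 20 cells numbered 19 in each mouse, and 2 and 0 of them were mostly positive.

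**Figure D5:**
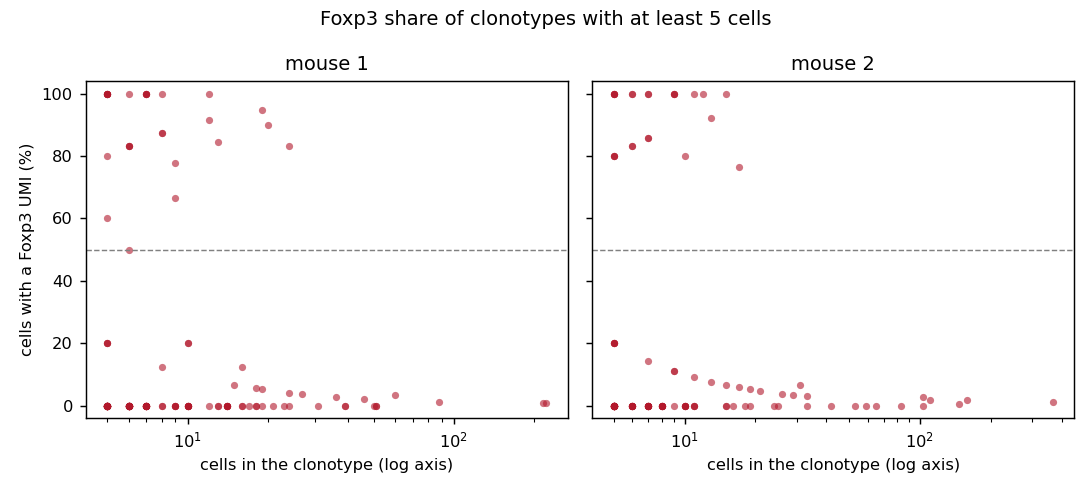
Share of cells with a Foxp3 UMI (%) against the number of cells (log axis) of each clonotype with at least 5 cells, per mouse; the dashed line marks 50%. Of 140 and 113 clonotypes, 94 and 67 lie at 0% and 10 and 9 from 20% to 80%. The largest clonotypes lie near 0%.

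The mice shared some clonotypes. Of the positive clonotypes 23 occurred as positive in both, 3.92% of 586 and 3.07% of 749, against 36 shared among Foxp3-zero cells, 1.35% of 2669 and 1.37% of 2634. In total 63 TRB sequences occurred in both mice, and 34 of them were paired with an identical TRA V gene, J gene and CDR3 nucleotide sequence in both. Of these 34 pairs 20 had positive cells in both mice, 12 in neither and 2 in mouse 1 only. Of the 29 others, 3 had positive cells in both, 20 in neither and 6 in 1 mouse. No shared sequence had the same cell barcode in both libraries. The labels do not say whether donor cells were pooled before transfer, so the same clone in both hosts and independent rearrangement cannot be told apart.

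Of the identical pairs with most positive cells 3 are printed as beta, then alpha CDR3, since both chains match in every base between the hosts. Capitals mark the bases between the first 9 and the last 9. The beta genes lie on chromosome 6 and the alpha genes on chromosome 14.
TRBV16 TRBJ2-5: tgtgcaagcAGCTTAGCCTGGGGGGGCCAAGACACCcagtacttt
TRAV6D-6 TRAJ15: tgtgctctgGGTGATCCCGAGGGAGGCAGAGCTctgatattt
TRBV2 TRBJ2-7: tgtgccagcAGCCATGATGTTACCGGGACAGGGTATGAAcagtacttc
TRAV16D-DV11 TRAJ23: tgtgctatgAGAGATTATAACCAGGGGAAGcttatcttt
TRBV26 TRBJ1-3: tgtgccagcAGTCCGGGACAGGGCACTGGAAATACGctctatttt
TRAV6-5 TRAJ6: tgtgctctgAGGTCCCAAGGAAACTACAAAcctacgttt
They held 2, 4 and 3 positive cells in mouse 1 and 3, 1 and 1 in mouse 2. The first also held 1 Foxp3-zero cell in each mouse, and the other printed pairs held none. The first also shared another alpha chain, not printed. In its 3 and 4 cells the alpha chain with most UMIs used TRAV7-3 with TRAJ9, not the printed genes. An unprinted pair, TRBV31 TRBJ2-5 with TRAV4-2 TRAJ38, tied with the third. It too shared another alpha chain, and in its 3 cells and 1 cell the alpha chain with most UMIs used TRAV9D-1 with TRAJ34. Over all 20 pairs there were 28 positive and 3 Foxp3-zero cells in mouse 1 and 25 and 1 in mouse 2.

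A second alpha chain was found in 15.3% (13.1 to 17.8) and 17.5% (15.3 to 19.8) of positive cells, against 12.4% (11.5 to 13.3) and 9.66% (8.87 to 10.5) of Foxp3-zero cells. Within 5000 to 8000 UMIs the shares were 14.4% and 17.6%, against 13.8% and 9.70%. The intervals were 10.9 to 18.6 against 12.4 to 15.4 in mouse 1 and 14.3 to 21.3 against 8.56 to 10.9 in mouse 2. They count each cell as independent, while cells of 1 clonotype are not, and no count per clonotype was made. No alpha contig was found in 1.63% and 1.83% of positive cells, against 3.57% and 3.34% of Foxp3-zero cells. The part of unequal alpha chain capture was not tested.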

How the data were processed

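Cell Ranger version 7.0.1 and the build GRCm38 are named in the submitters' processing notes; other upstream settings are not given in the sources used here. The deposited matrices hold UMI counts per gene and barcode from 10x 5′ libraries, and the deposited contig tables hold the authors' filtered receptor contigs with their UMI counts. Libraries held 70092822 and 75940181 UMIs over 9996 and 9733 barcodes. Percentages, shares and levels were computed here from these counts.

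Cells were kept by the rule given in the report. Members, gene lists and tests were chosen with earlier results of these data known, and several lists overlap. Each class of each mouse gave 1 sum of UMI counts (4 sums a comparison), and sums were tested with edgeR 4.0.16 in R 4.3.3 (quasi-likelihood F test, TMM, filterByExpr, mouse as a block, Benjamini-Hochberg over all genes tested, threshold 0.05). Both classes of a sum pair come from the same mouse, which is the reason for the block. Foxp3, the splitting gene and receptor V, D and J segments were left out of the tests. With 2 mice there is 1 residual degree of freedom, and p-values measure only the pooled spread between these sums. CPM of the tested sums leave receptor segments out of the totals, and CPM by Foxp3 UMI number and of other-lineage markers do not. Tested on simulated counts for the main comparison, 46 of 50 genes changed 2-fold were recovered among 13072, and 10 of 12872 unchanged genes were called. The simulated counts had 1 spread for all genes and no difference between mice beyond total UMIs. They therefore cannot show how many calls in the real sums come from variation of single genes between hosts.

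Clusters came from scanpy 1.11.5 (2000 variable genes without receptor segments and Foxp3, 30 principal components, 15 neighbours, Leiden resolution 0.6). Shares have exact Clopper-Pearson 95% intervals (scipy 1.17.1), which cover counting error only; thinned values use 3000 UMIs per cell. Scrublet called 0 doublets in both libraries, so it did not work here and none were removed. Named genes were the 5 markers, the 10 largest changes each way among called genes that moved alike in the 2 mice and averaged 20 CPM or more in a class (5 for the Il2ra and Itgae splits), the 2 clearest members each way of each list and members with a known role. Some list members are not reported here. Alternatives were DESeq2 1.42.0, other size factors, no filter, no block, matched depth, other cell sets and 1 cell per clonotype.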

Additional observations from a re-analysis of the deposited data

Results flagged for a closer look

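Barcodes outside the kept cells also held Foxp3 UMIs. Of barcodes with no receptor contig 16.3% in mouse 1 and 22.4% in mouse 2 had one. Of barcodes with 2 TRB contigs the shares were 14.8% in mouse 1 and 19.8% in mouse 2. In the kept cells the shares were 15.3% and 18.1%. Neither of the 2 sets taken as background is known to lack regulatory T cells. Kept cells with a Cx3cr1 UMI and no Il2ra UMI gave 5.05% and 1.94%. Barcodes with C1q UMIs and no contig gave 11.1% (2.35 to 29.2) and 21.2% (8.98 to 38.9), intervals that include the shares of all barcodes without a contig. The barcodes stand out because the main comparisons do not use them; an alternative over all barcodes past the cell filters does.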

How the results depend on the processing

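Counts of called genes depended most on the test used and on the block. With DESeq2 the counts were 2617 for Foxp3-positive against Foxp3-zero, 60 for the Il2ra split and 146 for the Itgae split. With edgeR and the mouse block they were 5586, 1077 and 1268, and without the replicate block 3117, 34 and 33. The sets differ, since DESeq2 gave an adjusted p for 13072, 5849 and 1751 genes, against 13072, 10556 and 10524 with edgeR. At matched UMI depth the Il2ra and Itgae splits gave 596 and 496 genes, and within the Treg-like cluster, an alternative added after seeing the data, 443 and 256. The cause was not tested. All other alternatives for these counts stayed within 1.5 times, from 4467 to 5899 for the first comparison. DESeq2 raised the share of called genes that were higher to 58.0%, against 52.1%.

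The Foxp3-positive share moved under every alternative tried: 12.1% and 15.2% with at least 2 UMIs, 12.7% and 15.2% thinned, 18.5% and 22.6% of clonotypes with any positive cell, and 17.1% and 21.5% with 1 drawn cell per clonotype. Among the genes named, 3 changed direction, Sostdc1 in both splits. Nr4a2 was at 0.24 with 1 cell per clonotype and Nrp1 at 0.0056 at matched depth. Sostdc1 was at 0.26 in the Il2ra split and 0.80 in the Itgae split within the Treg-like cluster. Leaving out a mouse leaves no residual degrees of freedom, so it gave fold changes per mouse and no counts. The alternative without Scrublet doublets was not run, since none were called; leaving out the 8% highest scores, added after seeing the data, gave 5562 genes. Precision is limited by 2 mice and, for single genes, by few UMIs per cell.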
